A study of Mus musculus with 12 samples.

Results

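The genotype difference in the response to Listeria was measured gene by gene as the log2 change on challenge in Mirc11-/- natural killer (NK) cells minus the log2 change on challenge in wild-type cells. The members had to meet 2 criteria: enough reads to be tested, and a position outside chromosomes X and Y. Neither uses the size or direction of the genotype difference, but members were chosen with earlier results of these data known. The read filter also kept 484 genes with fewer than 10 counts in a group, so membership can depend on levels in the compared groups. Of 50643 genes listed in the count table, 16694 were tested and 16199 of these met both criteria. The 12 libraries were polyA RNA-seq of NK cells from mouse spleen, isolated by removing the other cells, all on the C57BL/6 background. Each of 4 groups held 3 biological replicates: wild-type unchallenged, wild-type challenged with Listeria, Mirc11-/- unchallenged, and Mirc11-/- challenged with Listeria. Mirc11 is a cluster of microRNA genes, and the labels name no cell type, promoter or Cre that would limit its loss to NK cells. Age, sex, bacterial dose, route and time after infection are not stated in the labels used here. The question was which genes depart from a knockout response that is smaller by the same share everywhere.

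NK cells are innate lymphocytes that kill infected or transformed cells with perforin and granzymes and release interferon gamma. In Listeria infection, macrophages and dendritic cells that sense the bacterium release interleukins 12 and 18 and type I interferon, and NK cells respond with interferon gamma. Interferons induce chemokines, antiviral proteins and guanylate-binding GTPases, while interleukin 1 and Toll-like receptors signal through the ubiquitin ligase TRAF6 to NF-kB and AP-1. MicroRNAs bind mRNAs and lower their level or translation.

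Library totals ran from 17624500 to 23665700 counts, so that a total of 3 counts in a library corresponds to 0.127 to 0.170 CPM (counts scaled to a common library total). All levels below are CPM after scaling between libraries. The labels could be checked only in part. The 3 annotated microRNA genes of the cluster had 0 counts in every library. Gm26532, a long noncoding RNA annotated directly downstream of the cluster, had 2.29 to 4.80 CPM in wild-type libraries and 0.112 to 0.494 CPM in unchallenged knockout libraries. It had 0.882, 0.951 and 2.68 CPM in challenged knockout libraries, so the library labelled Mirc11-/- challenged replicate 3 fell inside the wild-type range. Gm37352, also on chromosome 8, had 2.99 to 7.10 CPM in wild-type libraries, 57.5 to 60.9 CPM in unchallenged knockout libraries, and 46.9, 34.3 and 29.4 CPM in challenged knockout libraries. By this transcript all 6 knockout libraries, replicate 3 included, lay above every wild-type one. Ncr1, which defines NK cells, had 192 to 866 CPM over the 12 libraries, against 21.2 to 45.4 CPM for the T cell gene Cd3e. The B cell gene Cd79b had 224 to 237 CPM in challenged wild-type libraries, above the 192 to 216 CPM of Ncr1 there. In the other groups Ncr1 was the higher. Summed B cell markers were 10260 to 10930 CPM in challenged wild-type libraries, against 3180 to 3430 CPM for NK receptors and adaptors. Transcripts of other cells were therefore a large part of these preparations. Sex-linked transcripts also moved with the groups. Xist had 1179 to 1981 CPM in unchallenged wild-type, 1211 to 1544 in challenged wild-type, 0.359 to 1.07 in unchallenged knockout and 523 to 1019 in challenged knockout libraries. The sum of 4 Y-linked genes was 281 to 356 CPM and 121 to 212 CPM in unchallenged and challenged knockout libraries. In challenged wild-type libraries it was 1.17 to 1.77 CPM, and in unchallenged wild-type libraries 2.89 to 115 CPM, the highest being replicate 4. The knockout challenge contrast therefore differs in sex-linked transcripts as well as in challenge, and the parts of the 2 in the genotype difference cannot be told apart. Further runs left out challenged knockout replicate 3 and unchallenged wild-type replicate 4 together, and each library in turn. Their results are given for some of the counts that they changed by over 1.5 times. Other list counts also moved in these runs.

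Challenge changed a large part of the transcriptome in both genotypes, and less of it in the knockout. In wild-type cells 5282 genes rose (32.6% of those tested) and 4997 fell (30.8%). In the knockout 2538 rose (15.7%) and 1866 fell (11.5%). The genotype difference itself, the interaction term of edgeR's quasi-likelihood test at a Benjamini-Hochberg adjusted p below 0.05, was called for 5724 genes (35.3%). It was positive for 2702 (16.7%) and negative for 3022 (18.7%). Scaling by library totals only moved the median interaction over all genes from 0.00 to 0.11 on the log2 scale and the positive share of calls from 47.2% to 61.4% (3709 positive and 2332 negative). Of the 5724, 4237 differed between genotypes after challenge and not before it, and 1222 differed before it, 388 of them not after it. Before challenge 1906 genes were called in all (11.8%). The knockout challenge contrast and the contrast before challenge share the 3 unchallenged knockout libraries. The cells were bulk populations, so fewer cells of a type and less RNA per cell cannot be told apart in any of these values.

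For most genes that responded in wild-type by 2-fold or more, the fitted knockout change was in the same direction and smaller. Among 3941 genes called in wild-type with a change of 2-fold or more, the median ratio of the knockout log2 change to the wild-type log2 change was 0.310, with quartiles of 0.155 and 0.460. The ratio was below 0 for 449 of these genes and above 1 for 64. Of the 2215 that rose, 1590 (71.8%) had a called negative interaction, 620 had no called difference and 5 had a larger response. In the knockout 1351 of the 2215 were called as rises, 835 were not called and 29 were called as falls. Of the 1726 that fell, 1246 (72.2%) had a called positive interaction, 480 had no called difference and none had a called, larger response. In the knockout 659 of the 1726 were called as falls, 1046 were not called and 21 were called as rises. The called interactions thus include genes that reversed in the knockout. Over all 16199 genes the 2 responses had a Pearson correlation of 0.67, a description across genes within the same 12 libraries.

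Granzyme B and the receptor NK1.1 show the uniform part of the pattern on the log2 scale. Gzmb, which encodes the granule protease granzyme B, had 230, 232 and 262 CPM without and 1844, 1834 and 1781 with Listeria in wild-type libraries, against 249, 240 and 259 without and 507, 506 and 450 with it in the knockout. The 2 unchallenged groups overlapped, and the 2 challenged groups lay far apart, both above their controls. Its log2 change was 2.92 ± 0.07 (SE) in wild-type and 0.97 ± 0.07 in the knockout, an interaction of -1.95 ± 0.10 (adjusted p = 4.6e-09). Klrb1c, which encodes the activating receptor NK1.1, had 914, 897 and 996 CPM without and 151, 153 and 160 with Listeria in wild-type libraries, against 932, 928 and 913 without and 566, 596 and 621 with it in the knockout. Challenged libraries were below unchallenged ones in both genotypes, without overlap. Its interaction was 1.96 ± 0.08 (adjusted p = 3.0e-09), the opposite sign to Gzmb because the wild-type change was a fall.

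**Figure D1:**
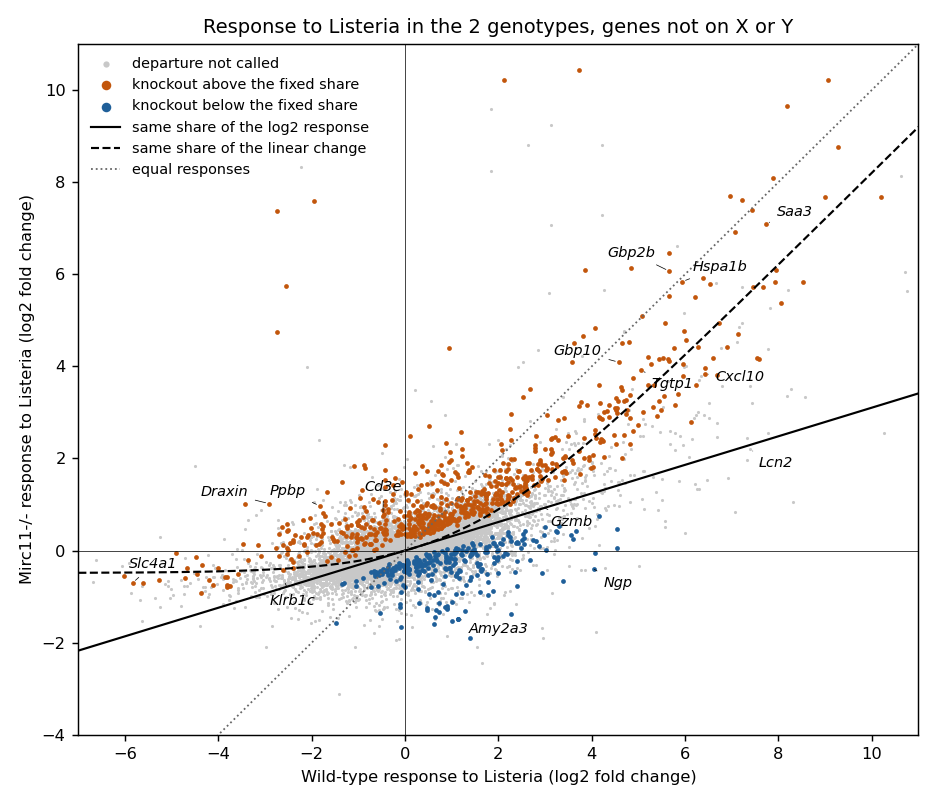
Log2 response to Listeria in wild-type (horizontal axis) and Mirc11-/- cells (vertical axis) for 16187 genes not on X or Y, with 12 more outside the axes. Coloured points are the 986 genes whose knockout response departed from 0.310 times the wild-type response (solid line); the dashed curve is the same share of the change in level, the dotted line equal responses, and 707 coloured points lie above the solid line and 279 below it.

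Departure from uniformity was tested in the same fit, as the knockout log2 change minus 0.310 times the wild-type log2 change. It was called for 986 genes (6.09%), positive for 707 (4.36%) and negative for 279 (1.72%), while 2868 had an unadjusted p below 0.05. The negative count moved with single libraries. It was 649 without challenged knockout replicate 1, 179 and 178 without challenged knockout replicates 2 and 3, and 153, 132 and 134 without unchallenged knockout replicates 2, 3 and 4. It was 163 without both challenged knockout replicate 3 and unchallenged wild-type replicate 4. The positive count was 454 without unchallenged knockout replicate 3 and 809 without challenged knockout replicate 1. Without challenged knockout replicate 1 the positive share of departures was 55.5%, against 71.7% with all libraries. Of the 986 genes, 575 were also called, with the same sign, without unchallenged knockout replicate 3, and 897 without challenged knockout replicate 1.

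The share that the knockout kept varied with the size and the direction of the wild-type response. For rises, the median ratio of log2 changes was 0.360 at a wild-type change of 1 to 2 (1340 genes), 0.381 at 2 to 3 (456 genes), 0.423 at 3 to 4 (184 genes) and 0.556 at 4 or more (235 genes). For falls it was 0.278 (1272 genes), 0.224 (308 genes), 0.173 (90 genes) and 0.136 (56 genes) over the same sizes. Larger rises thus kept more and larger falls kept less on the log2 scale. If instead a fixed share of the change in level is kept, a large rise keeps more of its log2 change and a large fall keeps less of it, so the same data were described on that second, linear scale. The median share of the linear change was 0.287 over 3819 genes. It was 0.223 for rises and 0.388 for falls. For rises of increasing size it was 0.244, 0.198, 0.175 and 0.182, and for falls 0.389, 0.378, 0.395 and, in 17 genes, 0.398. The share for falls thus hardly varied with size on the linear scale, and that for rises varied less than on the log2 scale.

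**Figure D2:**
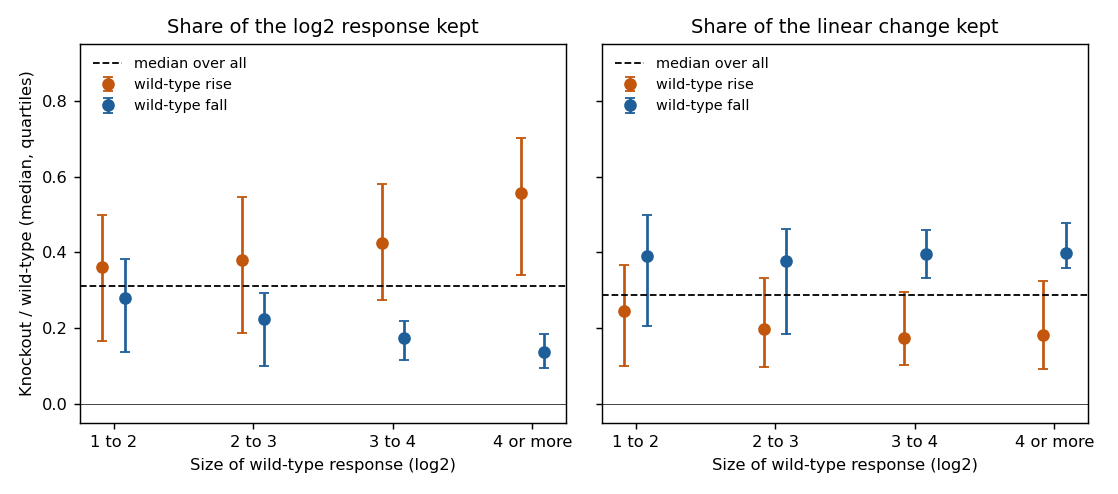
Median knockout to wild-type ratio (points) with quartiles (bars) for genes grouped by the size of the wild-type log2 response, on the log2 scale (left) and as the share of the change in level (right); the dashed lines are the medians over all genes, 0.310 and 0.287. On the left the rises climb from 0.360 to 0.556 and the falls drop from 0.278 to 0.136, and on the right the falls stay between 0.378 and 0.398.

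On the linear scale 324 genes departed upward (2.00%) and 465 downward (2.87%), at the same threshold. Both scales called 315 genes upward (1.94%) and 265 downward (1.64%), which is 580 of the 986 departures, and 8 departures called on both scales had opposite signs. The sorts of gene fared differently. Of 345 rises that kept more than the fixed share of the log2 change, 59 also kept more of the linear change. Of 116 rises that kept less, 115 did so on both scales. Of 106 falls that kept less, 41 did so on both scales, and the 5 falls that kept more did so on both. Each gene group below is therefore given with its calls on the log2 scale and on both scales. The shares over all genes to set beside them are 35.3% for the interaction and 6.09% for the log2 departure. On both scales they are 1.94% upward and 1.64% downward. A list count near these shares is not a result about the list.

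The NK cell's own receptors and regulators mostly fell, by less in the knockout. Of 31 tested NK receptors and adaptors, 26 fell in wild-type and 14 in the knockout, with median log2 changes of -1.33 and -0.38, and 23 had a positive and 4 a negative interaction. The 30 lineage and maturation regulators had medians of -1.02 and -0.26, with 24 positive and 4 negative interactions. For comparison, the median over all tested genes was -0.01 in both genotypes. On the log2 scale 4 of the 31 receptor genes departed (12.9%, against 6.09% of all genes): Cd160 and Slamf6 upward, Klrb1b and Klrg1 downward. These 4 also departed on the linear scale, where 2 receptors departed upward and 5 downward (22.6%, against 4.87% of all genes). Klrb1c was among the 5 (-0.24, adjusted p = 0.023). Of the 30 regulators, 4 departed on the log2 scale (13.3%) and 7, all downward, on the linear scale (23.3%). Without challenged knockout replicate 1, 4 receptors departed upward and 4 downward on the log2 scale, as did 3 regulators upward and 4 downward. Ly49 receptor genes (Klra) are near-identical copies, and their single values are uncertain. Cd160, a receptor for the herpesvirus entry mediator, had 91.7, 92.7 and 84.9 CPM without and 41.3, 39.8 and 41.3 with Listeria in wild-type libraries, against 69.4, 68.7 and 69.2 without and 71.4, 71.1 and 66 with it in the knockout. The knockout groups overlapped, and the wild-type groups did not. Its departure was 0.36 ± 0.06 (adjusted p = 0.0019). Among regulators, Nfil3, a transcription factor needed for NK development, rose by 1.5 in wild-type with a knockout value of -0.04, a departure of -0.50 ± 0.10 (adjusted p = 0.0070). S1pr5 and Bach2 departed upward on the log2 scale alone. S1pr5, a receptor that guides NK cells out of tissues, fell by 3.78 in wild-type and by 0.76 in the knockout.

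**Figure D3:**
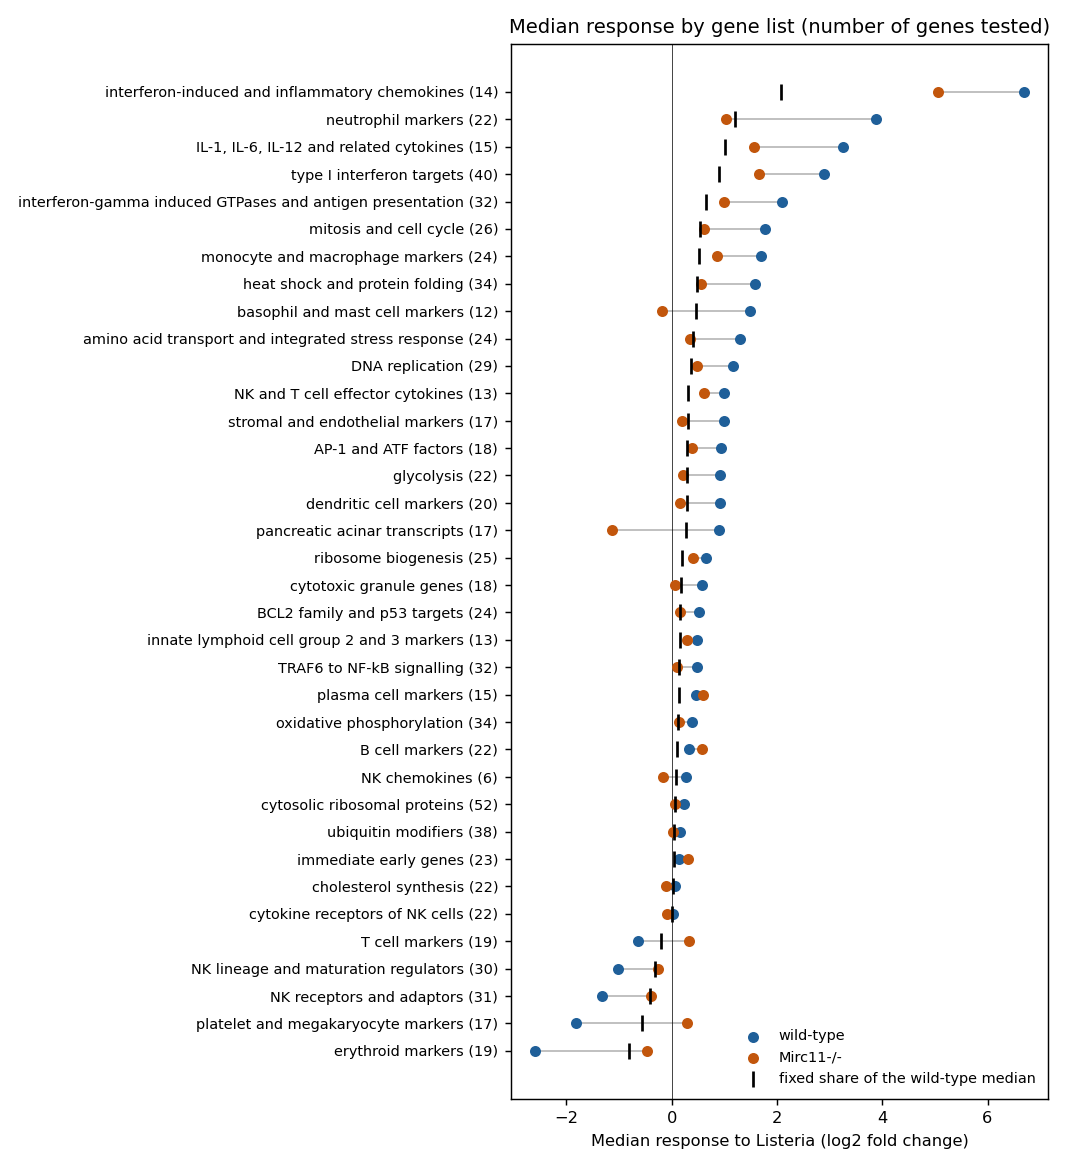
Median log2 response to Listeria of each gene list in wild-type and Mirc11-/- cells, with the number of genes tested in parentheses; the black tick is 0.310 times the wild-type median. Knockout points lie beside the tick for NK receptors, mitosis and heat shock genes, beyond it for chemokines and interferon targets, and on the other side of 0 from wild-type for T cell, platelet, basophil and pancreatic lists.

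Of 18 tested cytotoxic granule genes, 9 had a negative and 2 a positive interaction. Gzmc departed upward on the log2 scale only, and 4 departed downward on both scales: Prf1, Nkg7, Serpinb9 and Serpinb6b. Prf1, which encodes perforin, had 564, 603 and 715 CPM without and 937, 955 and 958 with Listeria in wild-type libraries, against 691, 694 and 721 without and 603, 500 and 588 with it in the knockout. All challenged wild-type libraries were above the unchallenged ones, and all challenged knockout libraries were below theirs. It rose by 0.60 in wild-type and fell by 0.32 in the knockout, an interaction of -0.91 ± 0.12 (adjusted p = 3.2e-05) and a departure of -0.50 ± 0.09 (adjusted p = 0.0026). Serpinb9, an inhibitor of granzyme B, rose by 1.48 in wild-type and had a knockout value of 0.03, a departure of -0.43 ± 0.08 (adjusted p = 0.0039). Gzmb did not depart on the log2 scale (0.06, adjusted p = 0.73) and departed downward on the linear scale, by 0.56 (adjusted p = 8.6e-04). Ifng, the gene for interferon gamma, had 87.3, 82.5 and 110 CPM without and 298, 290 and 280 with Listeria in wild-type libraries, against 71.7, 70.5 and 74.3 without and 92.9, 102 and 138 with it in the knockout. The challenged knockout libraries overlapped the unchallenged wild-type ones. Its interaction was -1.01 ± 0.18 (adjusted p = 9.0e-04), and its departure of 0.11 ± 0.14 was not called on either scale. Tnf, a cytokine of NK cells and macrophages, rose by 2.31 and 1.45, and its upward departure of 0.73 ± 0.10 (adjusted p = 4.4e-04) was lost on the linear scale (0.34, adjusted p = 0.12).

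Chemokine genes of the NK list included a pair with opposite responses in the 2 genotypes. Ccl6 and Ccl9, chemokines that attract leukocytes through CCR1, departed downward on both scales, and were the only 2 of 6 listed NK chemokines to depart on the log2 scale. Ccl6 had 30.5, 26.9 and 32.7 CPM without and 93.9, 86.2 and 87.6 with Listeria in wild-type libraries, against 93, 88.1 and 90.8 without and 72.6, 74.6 and 68 with it in the knockout. The unchallenged knockout libraries lay within the range of the challenged wild-type ones, and challenge lowered them. It rose by 1.57 in wild-type and fell by 0.34 in the knockout, an interaction of -1.91 ± 0.10 (adjusted p = 8.0e-09). Ccl9 had 16.2, 14.9 and 17.3 CPM without and 35.8, 33.6 and 38.2 with Listeria in wild-type libraries, against 59.4, 56.5 and 54 without and 37.2, 39.1 and 35.9 with it in the knockout. It was highest in unchallenged knockout libraries, and its interaction was -1.75 ± 0.11 (adjusted p = 2.7e-08).

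Sequence upstream of 4 genes is shown. Of these genes, 3 kept more of a large rise on both scales (Hspa1a, Tgtp1 and Gbp2b). Gbp2b did so from levels near the limit of detection. The other, Cxcl10, is among the 8 whose call turned between scales. Each window is the 250 bases before the RefSeq start in the GRCm38.p6 assembly, 5′ to 3′ on the gene's strand. Capitals mark matches to the heat shock motif GAANNTTC, the interferon motif GAAANNGAA, the gamma activated motif TTCNNNGAA and, in Cxcl10, the kappa B motif GGGANNTCC, on either strand. The windows are chr17:34972157-34972406 (minus strand) for Hspa1a, chr11:48992247-48992496 (minus strand) for Tgtp1, chr3:142594597-142594846 (plus strand) for Gbp2b and chr5:92348890-92349139 (minus strand) for Cxcl10.
Hspa1a: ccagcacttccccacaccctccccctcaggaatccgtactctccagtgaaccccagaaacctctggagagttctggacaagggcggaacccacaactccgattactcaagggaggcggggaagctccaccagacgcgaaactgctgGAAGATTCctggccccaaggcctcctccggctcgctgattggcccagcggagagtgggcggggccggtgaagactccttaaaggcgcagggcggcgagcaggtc
Tgtp1: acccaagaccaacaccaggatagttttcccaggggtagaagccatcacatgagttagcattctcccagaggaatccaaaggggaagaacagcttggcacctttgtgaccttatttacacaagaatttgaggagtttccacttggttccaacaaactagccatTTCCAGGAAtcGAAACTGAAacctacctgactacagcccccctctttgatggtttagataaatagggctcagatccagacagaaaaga
Gbp2b: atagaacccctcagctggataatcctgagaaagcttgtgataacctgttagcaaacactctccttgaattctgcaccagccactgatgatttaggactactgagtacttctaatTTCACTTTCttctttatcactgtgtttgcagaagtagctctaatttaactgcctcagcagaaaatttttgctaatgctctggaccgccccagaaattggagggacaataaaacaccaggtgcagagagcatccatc
Cxcl10: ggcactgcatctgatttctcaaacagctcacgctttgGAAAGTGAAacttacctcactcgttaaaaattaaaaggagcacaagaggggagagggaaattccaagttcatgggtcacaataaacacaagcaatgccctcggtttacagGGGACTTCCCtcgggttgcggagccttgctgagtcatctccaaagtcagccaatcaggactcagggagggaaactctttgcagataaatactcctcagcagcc
The heat shock match in Hspa1a starts at base 147 of the window. The window of its near-identical neighbour Hspa1b differs at 3 of 250 bases and holds the same match. In Tgtp1 the gamma activated match at base 163 and the interferon match at base 174 lie side by side. Gbp2b has an interferon match on the other strand at base 115, and Cxcl10 has one at base 38 with 2 overlapping kappa B matches at bases 148 and 149. A match is a description of letters and not a measured site.

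Interferon-induced and inflammatory chemokines kept more than the uniform share of a very large log2 rise. All 14 tested rose in wild-type and 12 rose in the knockout, with medians of 6.69 and 5.07, and 8 departed upward and 1 downward. Of the 14, 8 had fewer than 10 counts in a group and 4 were at 0 in a group. The medians therefore rest in part on fold changes that are not reliable. Summed over the list, the CPM rose by a ratio of 44.8 in wild-type and 10.1 in the knockout. None of the 8 upward departures was upward on the linear scale, and Cxcl10 turned there. Cxcl10, which attracts CXCR3-bearing T and NK cells, had 3.58, 4.28 and 3.8 CPM without and 320, 367 and 314 with Listeria in wild-type libraries, against 4.82, 5.34 and 4.32 without and 76.1, 73 and 58.5 with it in the knockout. Both genotypes rose without overlap, and every challenged knockout library was far below every challenged wild-type one. Its departure was 1.85 ± 0.13 (adjusted p = 4.4e-07) on the log2 scale and -0.82 ± 0.16 (adjusted p = 0.0066) on the linear scale. Cxcl2, which attracts neutrophils, had 0.427, 0.746 and 0.8 CPM without and 155, 195 and 145 with Listeria in wild-type libraries, against 1.51, 0.853 and 0.884 without and 83, 78.5 and 55.8 with it in the knockout. It departed by 3.62 ± 0.31 on the log2 scale (adjusted p = 1.8e-05) and by -0.05 on the linear scale (adjusted p = 0.96). Several others were near 0 before challenge, where a fitted fold change is not reliable: Cxcl11 had 0, 667, 4 and 243 counts summed over the 3 libraries of each group, in the order wild-type unchallenged, wild-type challenged, knockout unchallenged and knockout challenged. Ccl7 had 0, 604, 0 and 113 counts in that order. Cxcl16, a transmembrane chemokine, was the exception that departed downward on both scales, rising by 3.26 in wild-type with a knockout value of 0.40. Among 15 interleukins of the IL-1, IL-6 and IL-12 groups, all of which rose in wild-type, 6 departed upward on the log2 scale only, among them Il1a, Il1b and Il1rn. Il6 and Osm departed downward on both scales. Neutrophils and macrophages also make these chemokines and interleukins, and summed markers of monocytes and macrophages ranged over 2099 to 2143, 2632 to 2944, 2278 to 2327 and 2124 to 2620 CPM, in the order wild-type unchallenged, wild-type challenged, knockout unchallenged and knockout challenged. Their part in the chemokine values was not tested.

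Receptors for cytokines departed in both directions. Of 22 tested, 4 departed upward and 6 downward on the log2 scale, and 1 (Il21r) and 6 on both scales. Without challenged knockout replicate 3, 3 departed downward on the log2 scale. The 6 were Il2rb, Il12rb2, Il1rl1, Ifngr1, Ifnar1 and Csf2rb. Csf2rb, the beta chain shared by the receptors for IL-3, IL-5 and GM-CSF, had 44.5, 42.8 and 48.3 CPM without and 234, 238 and 246 with Listeria in wild-type libraries, against 128, 135 and 148 without and 135, 121 and 94.3 with it in the knockout. The 2 knockout groups overlapped midway between the wild-type groups. Its departure was -0.98 ± 0.11 (adjusted p = 4.0e-05), and before challenge it was 1.60 higher in the knockout on the log2 scale (adjusted p = 9.7e-08). Il12rb2, which completes the IL-12 receptor, rose by 0.89 in wild-type with a knockout value of -0.16, a departure of -0.44 ± 0.07 (adjusted p = 0.0016).

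Type I interferon targets rose in both genotypes and kept more of the log2 rise than the uniform share. Of 40 tested, 39 rose in wild-type and 37 in the knockout, with medians of 2.90 and 1.67, and 37 had a negative interaction. On the log2 scale 30 departed upward and 1 downward, a share far above the 4.36% of all genes, but on both scales 4 were upward (among them Ifit1bl1, Xaf1 and Ifi27l2a) and 1 downward (Isg20). Isg15, a ubiquitin-like modifier, had 14.1, 13.9 and 15.2 CPM without and 336, 373 and 372 with Listeria in wild-type libraries, against 26, 28 and 30.2 without and 134, 112 and 94.8 with it in the knockout. All groups were separate, and the unchallenged knockout libraries lay above the unchallenged wild-type ones. Its departure was 0.58 ± 0.11 on the log2 scale (adjusted p = 0.0044) and -0.97 on the linear scale (adjusted p = 7.0e-04). Ifit3 and Ifit3b, near-identical copies whose single values are uncertain, and Oas2, which senses double-stranded RNA, departed on the log2 scale only.

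GTPases induced by interferon gamma, which attack the compartments that hold intracellular bacteria, held more departures that remained on the linear scale. All 32 tested genes of this list, which also covers antigen presentation, rose in wild-type, and 31 rose in the knockout, with medians of 2.10 and 1.0. On the log2 scale 17 departed upward and none downward, and 7 did so on both scales: Gbp6, Gbp10, Gbp2b, Igtp, Tgtp1, Tgtp2 and Ciita. Gbp10 had 10.5, 8.91 and 8.3 CPM without and 226, 234 and 203 with Listeria in wild-type libraries, against 5.49, 5.03 and 5.3 without and 87.6, 104 and 77.7 with it in the knockout. The knockout was below wild-type both before and after challenge, without overlap. It rose by 4.58 in wild-type and 4.09 in the knockout, with departures of 2.67 ± 0.12 (adjusted p = 1.0e-08) and, on the linear scale, 1.15 ± 0.15 (adjusted p = 2.6e-04). Tgtp1, a T cell GTPase, had 22.2, 18.5 and 19.4 CPM without and 690, 666 and 631 with Listeria in wild-type libraries, against 13.7, 13 and 12.1 without and 198, 223 and 164 with it in the knockout. It too was lower in the knockout in both states, and its departure was 2.35 ± 0.11 (adjusted p = 1.0e-08), or 0.55 on the linear scale (adjusted p = 0.030). Gbp2b had 0.15 to 0.348 CPM in unchallenged wild-type and 0.0561 to 0.314 CPM in unchallenged knockout libraries. The lowest of these lie under the 0.127 to 0.170 CPM of 3 counts, so its fold changes and both departures are not reliable. After challenge it reached 12, 11.8 and 10.6 CPM in wild-type and 11.6, 13.4 and 9.37 CPM in the knockout, which overlapped. Its interaction of 0.41 ± 0.61 was not called (adjusted p = 0.64). Gbp and Tgtp genes have close copies, so reads may be split between them. Gbp2 had 43.6, 40.5 and 44.2 CPM without and 767, 713 and 685 with Listeria in wild-type libraries, against 37.2, 37.9 and 36.9 without and 238, 253 and 200 with it in the knockout. Its log2 departure of 1.36 ± 0.09 (adjusted p = 2.5e-07) was 0.15 on the linear scale (adjusted p = 0.51).

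Promoter letters were compared over the 10755 tested genes outside X and Y that matched RefSeq windows of 250 bases before to 50 after the start, 13627 windows in all. The interferon motif was in 7.73% of all windows, 11.7% of those of wild-type rises, 22.9% of those of rises that kept more on the log2 scale (61 of 266, exact 95% interval 18 to 28.5) and 36.4% of those that kept more on both scales (12 of 33). Among rises that kept less it was in 5.71%. The AP-1 motif TGANTCA was in 5.45% of all windows, 8.04% of those of wild-type rises and 13.9% of those of rises that kept more. The heat shock motif was in 5.94% of all windows and 18.2% of those of rises that kept more on both scales (6 of 33). It was in 8.27% of those of all rises that kept more on the log2 scale and in 10.5% of those of rises that kept less, or 17.4% at a departure of 1 or more (4 of 23). The kappa B motif was in 5.51% of all windows and 13.3% of those of rises that kept less (14 of 105). Windows of near-identical genes share their letters, so these shares carry no test.

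Heat shock genes divided by family member. Of 34 tested, 30 rose in wild-type and 26 in the knockout, with medians of 1.59 and 0.55, and 26 had a negative interaction. Hspa1a and Hspa1b, the stress-inducible HSP70 genes, departed upward on both scales, and Hspa8, their constitutive relative, departed downward on both. Hspa1b, at chromosome 17, 34956436 to 34959238 on GRCm38, had 2.99, 2.19 and 2.3 CPM without and 144, 148 and 165 with Listeria in wild-type libraries, against 1.63, 1.39 and 1.28 without and 106, 74.8 and 64.8 with it in the knockout. Challenged knockout libraries were below challenged wild-type ones, by about the same factor as before challenge. It rose by 5.94 ± 0.20 in wild-type and 5.84 ± 0.21 in the knockout, an interaction of -0.10 ± 0.34 (adjusted p = 0.85) and a departure of 4.00 ± 0.23 (adjusted p = 4.9e-07), or 1.57 ± 0.22 on the linear scale (adjusted p = 6.8e-04). Hspa1a, whose reads cannot be told apart with certainty from those of Hspa1b, rose by 6.39 and 5.92. Hspa8 had 1093, 1095 and 1033 CPM without and 5117, 4695 and 5074 with Listeria in wild-type libraries, against 1296, 1314 and 1380 without and 1788, 1715 and 1556 with it in the knockout. Its knockout groups were close together and far below challenged wild-type. It rose by 2.21 and 0.34, a departure of -0.34 ± 0.07 (adjusted p = 0.0067). Hspd1 and Hspe1, the mitochondrial chaperonin pair, and Hsp90aa1 and Hspa4 departed upward on the log2 scale only.

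No gene of the TRAF6 to NF-kB list departed on the log2 scale, and 1, Traf1, departed downward on the linear scale by limma (-0.285, adjusted p = 0.032). Of 32 tested, 22 rose in wild-type and 10 in the knockout, with medians of 0.48 and 0.10, and 21 had a negative and none a positive interaction. On the log2 scale 7 of the 32 departed at an unadjusted p below 0.05, and none did so by limma at the adjusted threshold. Without challenged knockout replicate 1, 7 departed downward on that scale. Nfkbia, the NF-kB inhibitor that NF-kB induces, had 108, 110 and 116 CPM without and 374, 409 and 396 with Listeria in wild-type libraries, against 120, 117 and 129 without and 220, 181 and 185 with it in the knockout. It rose in both genotypes without overlap, with an interaction of -1.15 ± 0.11 (adjusted p = 1.1e-06) and a departure of 0.11 (adjusted p = 0.53). Traf6 itself changed by 0.21 and -0.06, an interaction of -0.27 ± 0.10 (adjusted p = 0.039), and Nfkb1 by 0.48 and -0.06, an interaction of -0.54 ± 0.09 (adjusted p = 2.6e-04). Among 38 ubiquitin modifiers, 17 had a negative and 5 a positive interaction (57.9%, against 35.3% of all genes). Without challenged knockout replicate 3, 3 were positive. On the log2 scale 2 departed upward and 2 downward (10.5%, against 6.09% of all genes). The 2 downward ones, Ube2l6 and Smurf1, departed on both scales. Ube2l6, the conjugating enzyme for ISG15, had 59.5, 59.6 and 52.3 CPM without and 183, 185 and 192 with Listeria in wild-type libraries, against 144, 143 and 143 without and 143, 137 and 142 with it in the knockout. It was already high in the knockout before challenge, its knockout value was -0.03 with overlapping groups, and its departure was -0.56 ± 0.06 (adjusted p = 4.2e-05).

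Most AP-1 genes rose less in the knockout, and 4 departed upward from the share on the log2 scale. Of 18 AP-1 and ATF factors tested, 15 rose in wild-type and 9 in the knockout, with medians of 0.94 and 0.39, and 10 had a negative and 1 a positive interaction. Fos, Fosb and Jun departed upward on both scales, while Fosl2 departed downward on both, and Batf2 upward on the log2 scale only. Fos, at chromosome 12, 85473890 to 85477273, had 331, 323 and 350 CPM without and 424, 436 and 381 with Listeria in wild-type libraries, against 185, 195 and 186 without and 324, 290 and 407 with it in the knockout. Unchallenged knockout libraries were the lowest, and the challenged knockout libraries overlapped both wild-type groups. It rose by 0.31 ± 0.10 and 0.85 ± 0.10, an interaction of 0.55 ± 0.14 (adjusted p = 0.0060). Jun had 238, 262 and 261 CPM without and 399, 436 and 443 with Listeria in wild-type libraries, against 163, 162 and 162 without and 322, 244 and 329 with it in the knockout. It rose by 0.75 and 0.88, with no called interaction (0.13, adjusted p = 0.48) and a departure of 0.64 ± 0.10 (adjusted p = 6.6e-04). Before challenge, Fos was lower in the knockout by 0.83 (log2 difference -0.83, adjusted p = 3.1e-05) and Jun by 0.64 (log2 difference -0.64, adjusted p = 2.0e-04). Of 23 immediate early genes, the MAP kinase phosphatases Dusp1 and Dusp4 departed upward on both scales, and Nr4a3 and Ier3 downward. Dusp1 rose by 1.32 and 1.09, and Nr4a3, a nuclear receptor induced by antigen receptor signals, by 2.58 and 0.42.

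Among the growth programmes below, called departures on the log2 scale were most numerous in ribosome assembly. Lists without a call cannot be said to follow the share, since only 6.09% of all genes departed and several of these responses were small. All 26 mitosis genes tested had a negative interaction and none departed on the log2 scale, with medians of 1.77 and 0.62 (3 at an unadjusted p below 0.05). Mki67, a marker of cycling cells, had 228, 232 and 183 CPM without and 705, 593 and 647 with Listeria in wild-type libraries, against 400, 392 and 416 without and 471, 483 and 506 with it in the knockout. The knockout libraries lay between the wild-type groups in both states. Of 29 DNA replication genes, 24 had a negative interaction, with medians of 1.17 and 0.49, and 3, among them Gins1 and Mcm10, departed upward on the log2 scale only. Glycolysis had medians of 0.93 and 0.23 and no departure on the log2 scale among 22 genes, and oxidative phosphorylation had medians of 0.38 and 0.13 and none among 34. At an unadjusted p below 0.05 the departures numbered 3 for glycolysis and 3 for oxidative phosphorylation. The same lists and mitosis had none by limma on the log2 scale. On the linear scale 3 mitosis and 2 glycolysis genes departed downward. Ribosome biogenesis had medians of 0.66 and 0.40 and 7 negative interactions among 25 genes (28%, against 35.3% of all genes). It had 9 upward departures (36%, against 4.36% of all genes). Of these, 8 held on both scales: Nop58, Ncl, Npm1, Wdr12, Utp20, Gnl3, Ddx21 and Heatr1. Nop58, a core protein of box C/D ribonucleoproteins, had 73.1, 71.7 and 70.5 CPM without and 131, 117 and 118 with Listeria in wild-type libraries, against 66.1, 62.2 and 64.3 without and 90.4, 104 and 97.1 with it in the knockout. All 4 groups were separate. It rose by 0.77 and 0.60, a departure of 0.36 ± 0.07 (adjusted p = 0.0049). The upward count for this list ranged from 2 to 10 over the alternatives tried. Without challenged knockout replicate 3 it was 5, with 4 negative interactions, and without unchallenged wild-type replicate 4 as well there were 2 negative interactions. Cytosolic ribosomal protein genes, 52 tested, had medians of 0.23 and 0.06, and none departed (1 at an unadjusted p below 0.05, none by limma).

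Opposite responses were few. Both challenge contrasts and the interaction were called, with opposite signs, for 127 genes (0.78% of those tested), 71 rising and 56 falling in wild-type. A response in the same direction but larger in the knockout was called for 30 genes (0.19%), all rises. A further 70 genes rose (0.43%) and 57 fell (0.35%) in the knockout with a called interaction and no called wild-type change. Before challenge, 82 of the 127 opposite genes, 23 of the 30 with a larger knockout response and 70 of the 127 called in the knockout alone differed between genotypes, in a contrast that shares libraries with all of these. Of the 986 departures, 505 (51.2%) were also called before challenge, in a contrast that shares libraries with the departure. Over all tested genes, 1906 (11.8%) were called before challenge.

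**Figure D4:**
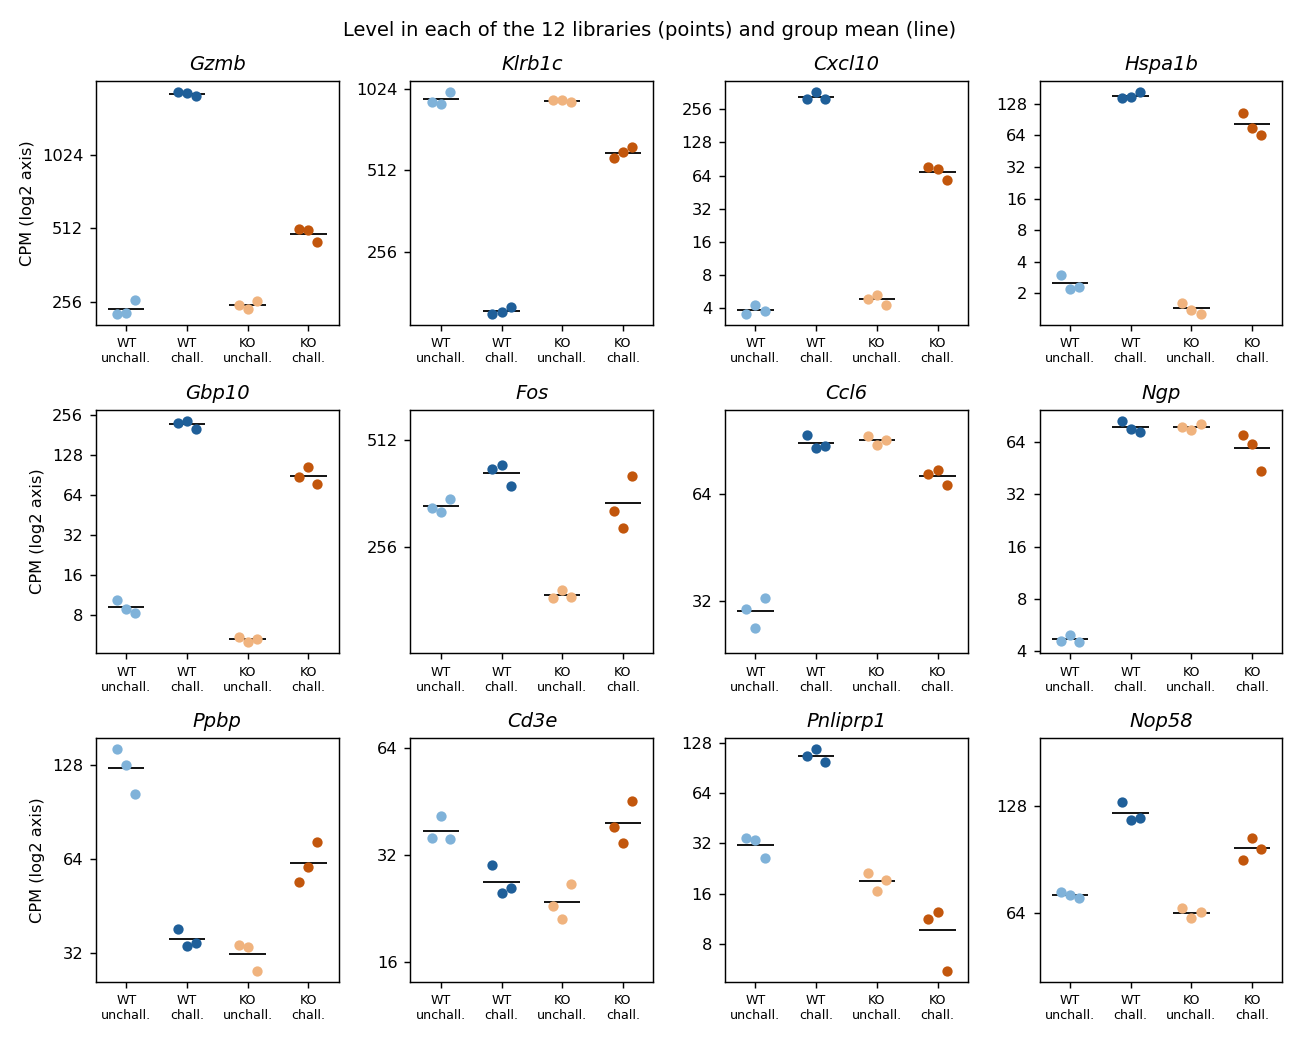
Level in each library (points, CPM on a log2 axis that differs between panels and does not start at 0) and group mean (lines) of 12 genes. Gzmb and Klrb1c move the same way by less in the knockout, Hspa1b and Gbp10 move nearly as far, and Fos, Ccl6, Ngp, Ppbp and Cd3e start from a different level in the unchallenged knockout.

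Neutrophil granule genes gave the largest opposite change. Ngp, neutrophilic granule protein, at chromosome 9, 110419747 to 110423012, had 4.59, 4.98 and 4.5 CPM without and 85.2, 75.7 and 73.5 with Listeria in wild-type libraries, against 78.2, 75 and 81.4 without and 70.4, 62.6 and 43.8 with it in the knockout. Unchallenged wild-type libraries alone were low, and the other 9 lay within a factor of about 2 of each other. It rose by 4.06 ± 0.16 in wild-type and fell by 0.41 in the knockout, an interaction of -4.46 ± 0.20 (adjusted p = 5.3e-09). Lcn2, an iron-siderophore binding protein of neutrophils, had 1.39, 2.59 and 1.75 CPM without and 333, 345 and 285 with Listeria in wild-type libraries, against 29.7, 32.2 and 32.3 without and 171, 144 and 118 with it in the knockout. It had the most negative interaction among genes that met the expression minimum for naming, -5.18 ± 0.24 (adjusted p = 9.6e-09), and followed the log2 share (departure -0.09, adjusted p = 0.83) but not the linear one (-3.40, adjusted p = 3.0e-05). Of 22 neutrophil markers, 21 had a negative interaction. On the log2 scale 4 departed upward (Retnlg, Mmp8, Csf3r and Il1r2) and 5 downward. The 5, which are Camp, Ngp, Ltf, Hdc and Cd177, did so on both scales, and none of the 4 departed upward on the linear scale, where Mmp8 turned. The summed level of the 22 markers ranged over 106 to 109, 2478 to 2905, 625 to 651 and 1172 to 1695 CPM, in the order wild-type unchallenged, wild-type challenged, knockout unchallenged and knockout challenged. Markers of neutrophils therefore moved with the groups, and their part in other genes' results was not tested.

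Most platelet and T cell markers fell in wild-type, and many rose in the knockout. Of 17 platelet and megakaryocyte markers, 14 fell in wild-type and none fell in the knockout, where 7 rose, with medians of -1.81 and 0.29. All 14 departures were upward, and 10 held on both scales. Ppbp, a platelet chemokine, at chromosome 5, 90768518 to 90770063, had 144, 128 and 103 CPM without and 38.1, 33.5 and 34.3 with Listeria in wild-type libraries, against 33.9, 33.3 and 28 without and 54.1, 60.2 and 72.4 with it in the knockout. Unchallenged knockout libraries were as low as, or lower than, challenged wild-type ones. It fell by 1.83 in wild-type and rose by 0.97 ± 0.13 in the knockout, an interaction of 2.80 ± 0.18 (adjusted p = 8.8e-08), and before challenge the knockout was lower (log2 difference -1.98, adjusted p = 2.3e-07). Tubb1, Gp6, Alox12, Slc6a4 and Draxin changed in the same opposite manner, with interactions of 2.42 to 3.93. Of 19 T cell markers, 16 fell in wild-type, while in the knockout 11 rose and 3 fell, with medians of -0.64 and 0.33, and 12 departed upward on both scales. Cd3e, a chain of the T cell receptor complex, had 35.6, 41.2 and 35.4 CPM without and 30, 25 and 25.8 with Listeria in wild-type libraries, against 23, 21.2 and 26.4 without and 38.4, 34.4 and 45.4 with it in the knockout. Challenge separated the groups in both genotypes, downward in wild-type and upward in the knockout. Its interaction was 1.22 ± 0.16 (adjusted p = 3.3e-05). The summed T cell markers ranged over 1125 to 1157, 702 to 706, 941 to 987 and 944 to 1026 CPM in the same order of groups as the macrophage markers. The summed platelet markers ranged over 748 to 1004, 647 to 690, 372 to 393 and 524 to 613 CPM. Their part in other genes' results was not tested.

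Most B cell and plasma cell markers departed upward from the share on the log2 scale. Of 22 B cell markers, 15 rose in wild-type and 17 in the knockout, with medians of 0.33 and 0.58, and 8 had a positive and 1 a negative interaction. Of the 22, 16 departed upward, 14 of them on both scales. Cd79b, a signalling chain of the B cell receptor, had 198, 218 and 196 CPM without and 224, 237 and 236 with Listeria in wild-type libraries, against 143, 134 and 151 without and 218, 190 and 209 with it in the knockout. The challenged knockout libraries overlapped the unchallenged wild-type ones. It rose by 0.18 and 0.53, an interaction of 0.34 ± 0.10 (adjusted p = 0.012). Pax5, the B cell identity factor, rose by 0.19 and 0.52, and Tlr1, Btla and Mtss1 were further genes with a larger knockout rise. Of 15 plasma cell markers, 6 had a positive and 4 a negative interaction, with medians of 0.47 and 0.59. On the log2 scale 11 departed upward, 8 of them on both scales, and 7 did so without challenged knockout replicate 3. In the same order, the summed B cell markers ranged over 6200 to 7231, 10260 to 10930, 4710 to 5023 and 6781 to 7567 CPM, and the plasma cell markers over 928 to 1032, 1456 to 1573, 1070 to 1107 and 1757 to 2033 CPM. NK isolation removes B and T cells by design, and how much of these changes comes from remaining cells was not tested.

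**Figure D5:**
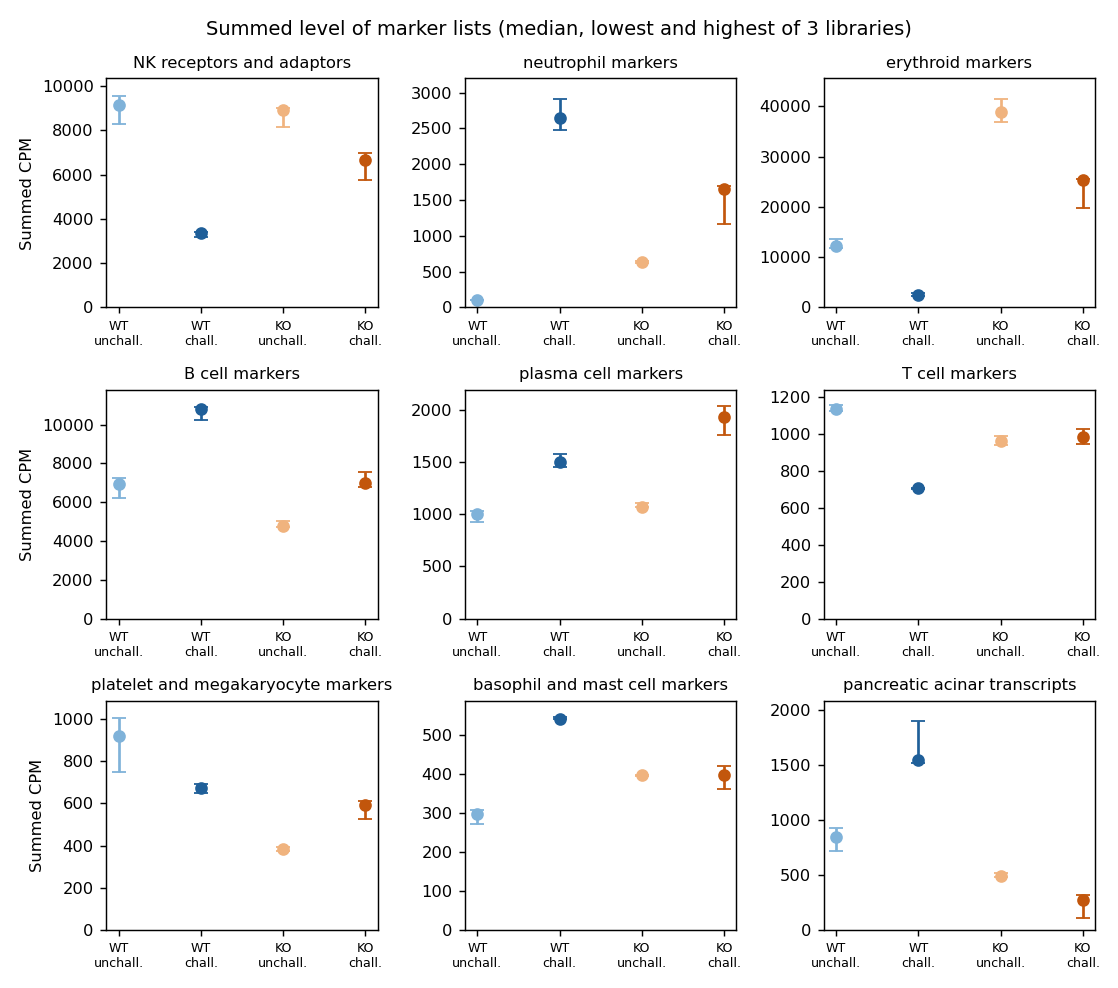
Summed CPM of 9 marker lists in the 4 groups (points, median of 3 libraries; bars, lowest and highest; each axis starts at 0). Neutrophil, erythroid, B cell, platelet and pancreatic sums differ between genotypes before challenge, and the NK receptor sum falls to 3360 CPM in challenged wild-type and 6673 CPM in challenged knockout libraries.

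Basophil, pancreatic, dendritic and erythroid genes made up most of the other departing markers. Of 12 basophil and mast cell markers, 7 departed downward on both scales, and Tpsb2 and Tpsab1 upward on the log2 scale only. Fcer1a, the IgE receptor chain, had 2.88, 2.39 and 3.05 CPM without and 7.85, 9.01 and 8.92 with Listeria in wild-type libraries, against 13.5, 14.1 and 12.8 without and 9.2, 11.1 and 9.37 with it in the knockout. It was highest in unchallenged knockout libraries, and its interaction was -2.08 ± 0.18 (adjusted p = 4.4e-07). Of 17 pancreatic acinar transcripts, 11 rose in wild-type and 14 fell in the knockout, with medians of 0.91 and -1.13, and 7 departed downward on both scales. Pnliprp1, a pancreatic lipase relative, had 34.6, 33.5 and 26.1 CPM without and 107, 118 and 98 with Listeria in wild-type libraries, against 21.3, 16.7 and 19.2 without and 11.3, 12.4 and 5.54 with it in the knockout. The pancreas lies against the spleen, and transcripts of digestive enzymes are not products of NK cells. Summed pancreatic transcripts had medians of 842, 1544, 491 and 270 CPM in the order given above, with challenged knockout replicates between 111 and 316 CPM, and the count of downward departures in this list ranged from 4 to 15 over the alternatives tried. Of 20 dendritic cell markers, 5 departed upward on the log2 scale only, 4 of them antigen presentation genes of MHC class II. Flt3 and Zbtb46 departed downward on both scales, rising by 1.91 and 1.97 in wild-type with knockout values of -0.27 and -0.01. Slc4a1, the red cell anion exchanger, had the most positive interaction of the named genes. It had 144, 154 and 106 CPM without and 2.06, 3.03 and 1.97 with Listeria in wild-type libraries, against 702, 709 and 757 without and 439, 364 and 531 with it in the knockout. Red cell RNA was lowest in challenged wild-type and highest in unchallenged knockout libraries, without overlap. It fell by 5.84 and 0.70, an interaction of 5.14 ± 0.27 (adjusted p = 7.5e-08), and its log2 departure of 1.11 ± 0.17 (adjusted p = 0.0018) was -0.24 on the linear scale (adjusted p = 0.57). Summed erythroid markers had medians of 12222, 2536, 38808 and 25354 CPM in the same order.

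The remaining lists added few departures on both scales. Among 13 effector cytokines of NK and T cells, 10 rose in wild-type and 8 in the knockout, and 3 departed upward on the log2 scale alone. Amino acid transport and integrated stress response genes, 24 tested, had medians of 1.3 and 0.35, with 4 upward departures on the log2 scale and none on both. Of 24 BCL2 family and p53 target genes, Bcl2l11, which encodes the death activator BIM, departed downward on both scales, with changes of 0.63 and -0.11. On the log2 scale 1 gene of this list departed upward and 1 downward (8.33%, against 6.09% of all genes). Monocyte and macrophage markers, 24 tested, had medians of 1.70 and 0.86 and 10 upward departures, of which Marco, C1qa and Hmox1 held on both scales. Marco, a scavenger receptor of macrophages, rose by 2.28 and 2.39. Among 13 markers of other innate lymphoid cells, Il1rl1 and Il17rb departed downward on both scales. Of 17 stromal and endothelial markers, Sparc departed downward and Vwf, which platelets also carry, upward on both scales.

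The 5 falls that kept more than the share lay just past the threshold. Of these, Pcgf2, Neat1, Styk1 and Dhrs3 met the expression minimum for naming. Neat1, a nuclear long noncoding RNA, had 1066, 1069 and 1189 CPM without and 470, 569 and 555 with Listeria in wild-type libraries, against 1673, 1656 and 1588 without and 1096, 1071 and 942 with it in the knockout. It fell by 1.06 and 0.66, a departure of -0.33 ± 0.08 (adjusted p = 0.029). No fall kept more than the share once challenged knockout replicate 3 was left out.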

How the data were processed

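PolyA RNA of 12 splenic NK cell samples was sequenced. The deposited table holds raw counts per gene in whole numbers, 1 column per library. The submitters' processing notes name RSEM 1.3.0, Bowtie2 2.2.8, Trim Galore 0.4.1 and bcl2fastq, with GRCm38 as the build. No source used here gives the annotation release or any rounding. Groups came from the labels, whose design text calls the replicates biological. It does not say whether samples came from separate animals in every case, so p-values measure the spread between these samples.

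Counts were fitted with edgeR 4.0.16 in R 4.3.3 (filterByExpr, TMM scaling, robust quasi-likelihood F test) over all 12 libraries together, which share 1 estimate of the spread. P-values were adjusted by the Benjamini-Hochberg method over the 16694 tested genes, with a threshold of 0.05, and members were then limited to 16199 genes outside chromosomes X and Y. CPM were computed after TMM scaling, whose factors ran from 0.949 to 1.04. The contrasts were the challenge response in each genotype, their difference, the genotype difference before challenge, and the departure, which is the knockout response minus 0.310 times the wild-type response. That share was estimated from the same libraries, and its own error is not in the departure's. The linear form set the knockout response under a uniform share to the log2 of 1 plus the median share times the wild-type fold minus 1. It was tested with limma 3.58.1 on log2 CPM with a prior count of 2. DESeq2 1.42.0 was an alternative. Other alternatives were library scaling, filters, a replicate block, other shares, and leaving out libraries. The tests were checked on simulated data.

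Named genes had at least 10 counts summed in each group and 10 CPM in the highest group. They were the largest interactions, the opposite and larger knockout responses with the smallest p, the largest departures of each sort, up to 3 genes per list with the smallest departure p, and a fixed set of NK and response genes. Other list members are named where all members called on both scales are given, or were chosen after their values were seen. Members and gene lists were chosen with earlier results of these data known, so no list is independent evidence. Promoter sequences are RefSeq's for GRCm38.p6, matched by symbol. 3 counts was taken as the limit of detection, for counting error only. Some list members are not reported here.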

Additional observations from a re-analysis of the deposited data

Results flagged for a closer look

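The genotype difference was positive for 2702 and negative for 3022 genes in edgeR's quasi-likelihood test, and 127 genes changed in opposite directions while 30 rose more in the knockout. Among named genes with opposite responses, the interaction on the log2 scale was -4.46 for Ngp, -2.04 for Csf2rb2, -1.91 for Ccl6, -1.75 for Ccl9, -1.64 for Serpinb9b and -1.24 for Ern1. It was 3.93 for Draxin, 3.10 for Gp6, 3.08 for Alox12, 2.96 for Tubb1, 2.80 for Ppbp and 2.42 for Slc6a4. Among named genes that rose more in the knockout it was 0.60 for Btla, 0.55 for Fos, 0.48 for Mtss1, 0.39 for Tlr1, 0.34 for Cd79b and 0.33 for Pax5. These values rest on the test of the difference itself. Outside the genes compared in the report, Xist on chromosome X had an interaction of 10.25, and 150 chromosome X genes and 2 chromosome Y genes had a called interaction. With 3 libraries per group, single libraries were not tested for standing apart.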

How the results depend on the processing

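Of 150 named genes, 126 had a called interaction, and 119 of these kept direction and call in every alternative run. Of the 117 called departures, 65 kept both everywhere and 78 in all but the linear form. The main counts of departures, 707 positive and 279 negative, became 324 and 465 on the linear scale. Negative departures numbered 423 with the share from an orthogonal regression, 419 with DESeq2 and 163 without challenged knockout replicate 3 and unchallenged wild-type replicate 4, and positive ones 470 with separate shares for rises and falls. Leaving out 1 library at a time gave 454 to 809 positive and 132 to 649 negative departures, 2338 to 2859 positive and 2660 to 3390 negative interactions, and a share of 0.301 to 0.323. With replicate number as a block, departures numbered 460 and 140. Deviations of same-numbered libraries had correlations of -0.308 to 0.249, with 4 of 14 above 0.1, against 9 of 40 for libraries of different number. The titles carry a further numbering that was not used. With 3 libraries per group, these correlations cannot show whether libraries share days or animals.

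At a wild-type change of 4-fold, 43 rises and 57 falls kept less, 0 falls kept more and 12 genes were opposite. Without challenged knockout replicate 3, 0 falls kept more. On the linear scale 58 rises and 48 falls kept more, and 244 rises and 40 falls kept less. The share of promoters with the AP-1 motif among rises that kept more was 19.66% at a departure of 1 or more, where the gamma activated and kappa B motifs were in 0 of the falls that kept less. The cause of these moves was not tested.

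On the linear scale the departure changed sign and was called for Cxcl10 (-0.82), Isg15 (-0.97), Mmp8 (-1.56), Gzmb (-0.56) and Klrb1c (-0.24). Of these, Gzmb and Klrb1c were not called on the log2 scale. It changed sign and lost its call for Slc4a1 (-0.24), Rhd (-0.18), Epb42 (-0.14), Klrb1 (-0.057), Cxcl2 (-0.048), Il10 (-0.14) and Cxcl9 (-0.17). The same held for Il1rn (-0.29), Il1b (-0.55), S1pr5 (-0.32), Usp18 (-0.22), Batf2 (-0.62), Gadd45b (-0.024) and Slc7a11 (-0.013). With the orthogonal share the departure changed sign for Isg15 (-0.048) and Gzmb (-0.33). Low counts limit 484 tested genes with fewer than 10 counts in a group, of which 74 were at 0 in a group.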

Other observations

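Rpl3-ps1, a ribosomal protein pseudogene on chromosome X chosen after its values were seen, had 218, 177 and 535 CPM in the 3 challenged knockout libraries and 0 to 0.327 CPM in the other 9. Rpl3 itself had 1159, 1030 and 643 CPM in those 3 libraries and 1198 to 1477 CPM in the other 9. Whether reads of Rpl3 were assigned to the pseudogene was not tested. In wild-type cells the summed interferon-induced and inflammatory chemokines rose from a median of 18.6 to 834 CPM, a ratio of 44.8, and in the knockout from 24 to 243 CPM, a ratio of 10.1. Summed type I interferon targets had a ratio of 5.0 in wild-type and 2.32 in the knockout and started from the same level (ratio of knockout to wild-type before challenge 1.0). Summed interferon gamma GTPases and antigen presentation genes had ratios of 3.10 and 1.78, starting at 0.858 of the wild-type level in the knockout. These ratios compare medians of 3 libraries and carry no test.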
